A study of Mus musculus with 9 samples.

Results

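The genes described here code for the ERK branch of the mitogen-activated protein kinase (MAPK) network, from the receptors that start it to its nuclear targets and the proteins that restrain it. They were chosen by symbol, by their known place in the cascade and not by their values, and are 35 of the 21989 genes in the deposited expression table. Expression was measured by RNA sequencing of poly-A RNA from the heart of male C57BL/6J mice, 18 to 20 weeks old by the labels, with 3 mice in each of 3 groups. Sham mice (sham) were given distilled water. The second group (TAC) had the operation named TAC, usually read as transverse aortic constriction, which narrows the aorta and loads the left ventricle with pressure, and was also given distilled water. The third group (LD) had TAC and was given Lingguizhugan decoction, a Chinese herbal preparation, so that LD against TAC compares the decoction with water after the same operation. The study's title names heart failure and the balance of MAPK and AKT signalling as its subject. The heart was taken as a whole tissue, so every value is a mixture of muscle, fibroblasts, vessels and blood cells, and fewer cells of a type and less RNA per cell cannot be told apart.

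In this cascade, a growth factor receptor at the membrane binds adaptors that bring an exchange factor to the small GTPase Ras. Ras loaded with GTP recruits a Raf kinase, Raf phosphorylates the kinase MEK, and MEK phosphorylates ERK, which acts on other kinases and on transcription factors. In the heart the pathway is known for its part in the growth of muscle cells under load. Activity is set by phosphorylation, which RNA levels do not measure. The values here are therefore levels of transcripts, in FPKM (fragments scaled by gene length and by the total of the library), which allows genes of different length to be compared.

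Totals recovered from the table were between 7.43 and 18.1 M fragments per library, and the members had between 10 and 5256 fragments each in any library. The libraries were of 2 kinds by whether their recovered fragment numbers were even or odd. In sham replicates 1 and 3 and TAC replicates 2 and 3, only 8.20 to 11.7% of genes with 20 to 50 fragments had an odd number of them, while the share was 47.5 to 51.8% in the other 5 libraries, which hold all of LD. With the fragments of the mostly even libraries halved, totals were between 4.48 M (TAC replicate 3) and 18.1 M, and the lowest number for a member was 5. Differences within each kind stand below beside the differences that are described in full. For some of them a fit with the kind of library as a term is also given. All LD libraries are of the same kind, so that fit estimates the effect of the kind from sham and TAC only. What caused the split was not tested. LD replicate 3 held the lowest of the 9 values for 11 of the 35 members (31.4%) and for 31.1% of all tested genes. Its median member stood at -0.20 from the sham mean on the log2 scale, beside -0.24 for the median of all tested genes. The same library held the highest value for 5 members (14.3%) and for 10.2% of all tested genes. TAC replicate 3 held the highest value for 8 members (22.9%) and for 27.3% of all tested genes. Of 10 cardiomyocyte markers all had a mean FPKM of at least 1, with sums between 36684 and 75648 FPKM over the 9 libraries. Markers of fibroblasts (10 of 10 higher in TAC than in sham) summed to 1034 to 1221 FPKM in sham, 1575 to 2507 in TAC and 1150 to 1757 in LD. Those of erythroid cells (7 of 7 higher) summed to 516 to 3344 FPKM in sham, 2239 to 11063 in TAC and 1205 to 2276 in LD. The erythroid sums of sham and TAC overlapped. Their mean log2 above sham was 0.66, 2.56 and 0.15 in TAC replicates 1, 2 and 3, and 0.91 in sham replicate 3. Macrophage markers (8 of 10 higher in TAC than in sham) summed to 285 to 445 FPKM in sham, 329 to 476 in TAC and 292 to 429 in LD. Markers of atrial myocytes summed to 67.7 to 103 FPKM in sham, 102 to 459 in TAC and 169.8 to 560.3 in LD, and 1 of the 6 was at 0 in all libraries. LD replicate 3 stood highest in them, at a mean log2 of 2.17 above sham, and was 0.40 above sham in the cardiomyocyte markers. Smooth muscle and pericyte markers summed to 379 to 449 FPKM in sham, 475 to 611 in TAC and 428 to 583 in LD. The part of these markers in the members' values was not tested.

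Of the members, 4 had an unadjusted p under 0.05 in a comparison of groups, and their promoters are shown for that reason: Rps6ka1, Elk1, Spry1 and Nras. Each window runs from 250 bases before to 50 bases after the transcription start site, in RefSeq sequence on GRCm38.p6, read 5′ to 3′ on the strand of the gene. Capitals mark the GC box, the letters GGGCGG or their reverse complement CCGCCC, a motif bound by Sp1 family factors.
Rps6ka1, chr4:133887748-133888047, minus strand: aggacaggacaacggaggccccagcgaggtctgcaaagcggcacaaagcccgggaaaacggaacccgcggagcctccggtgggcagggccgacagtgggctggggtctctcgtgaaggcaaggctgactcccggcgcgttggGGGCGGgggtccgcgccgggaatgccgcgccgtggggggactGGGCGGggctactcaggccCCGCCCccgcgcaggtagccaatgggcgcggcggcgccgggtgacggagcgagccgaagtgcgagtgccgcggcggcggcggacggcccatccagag
Elk1, chrX:20950559-20950858, minus strand: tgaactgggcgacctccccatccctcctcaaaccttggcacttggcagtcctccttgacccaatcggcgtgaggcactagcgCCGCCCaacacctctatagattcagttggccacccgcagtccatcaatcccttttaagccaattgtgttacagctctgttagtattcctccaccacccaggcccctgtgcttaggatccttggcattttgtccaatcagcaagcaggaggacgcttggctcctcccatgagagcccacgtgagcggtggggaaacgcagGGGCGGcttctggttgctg
Spry1, chr3:37639697-37639996, plus strand: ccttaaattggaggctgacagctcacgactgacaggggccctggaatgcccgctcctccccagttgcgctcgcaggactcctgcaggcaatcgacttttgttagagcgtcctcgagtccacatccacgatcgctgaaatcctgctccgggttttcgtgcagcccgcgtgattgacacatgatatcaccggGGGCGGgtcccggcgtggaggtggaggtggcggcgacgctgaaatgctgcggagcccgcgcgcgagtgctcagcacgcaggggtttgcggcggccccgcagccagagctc
Nras, chr3:103058035-103058334, plus strand: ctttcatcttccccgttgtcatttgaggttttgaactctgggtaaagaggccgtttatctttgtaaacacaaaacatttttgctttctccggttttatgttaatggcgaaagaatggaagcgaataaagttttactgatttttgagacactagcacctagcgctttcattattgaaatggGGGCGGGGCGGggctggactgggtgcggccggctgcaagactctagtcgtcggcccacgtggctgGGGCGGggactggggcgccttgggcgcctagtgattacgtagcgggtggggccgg
The windows of Rps6ka1 and Nras held 3 GC boxes each, counting overlapping ones in Nras separately, that of Elk1 held 2 and that of Spry1 held 1. None of the 4 held the Ets core CCGGAA on either strand, or the CArG box that the serum response factor binds. Among 32 members with a window, 24 (75%) held a GC box, against 65.6% of 8765 tested genes with a window. The Ets core was found in 12 members (37.5%), against 28.7% of those genes, and the CArG box in 1, Mknk2, against 1.39%. For Grb2, Mknk2 and Araf the nearest RefSeq start lay 8669, 1819 and 50729 bases from the start of the GENCODE gene. A match of letters is a description of the sequence and not of binding.

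All 35 members passed the filter on low values, 1 FPKM or more in 3 or more libraries. Mean levels over the 9 libraries spanned from 0.781 FPKM for Egfr to 215.5 FPKM for Pebp1. By their means, 14 members were at or above 10 FPKM, 13 were between 3 and 10, and 8 were below 3. Sorted by mean, Pebp1 was the only member whose range did not overlap that of the next, Map2k2. Each of the other neighbours in the order had overlapping ranges. Ranges do not compare 2 genes within the same library. By library, Mapk3 exceeded Mknk2, Rras exceeded Hras and Hras exceeded Ptpn11 in 8 of 9 each, while Map2k2 exceeded Mapk3 in only 4. After the inhibitor Pebp1, the highest means were those of Map2k2 (87.3 FPKM), Mapk3 (86.9 FPKM), Mknk2 (64.5 FPKM) and Rras (64.4 FPKM). The order by mean rests on the gene lengths behind the FPKM. The recovered length was 2540 bases for Map2k2, against 5663 annotated exon bases, and 7025 for Map2k5, against 3240. The receptors, the exchange factors and Braf had means of 5.39 FPKM or less.

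**Figure D1:**
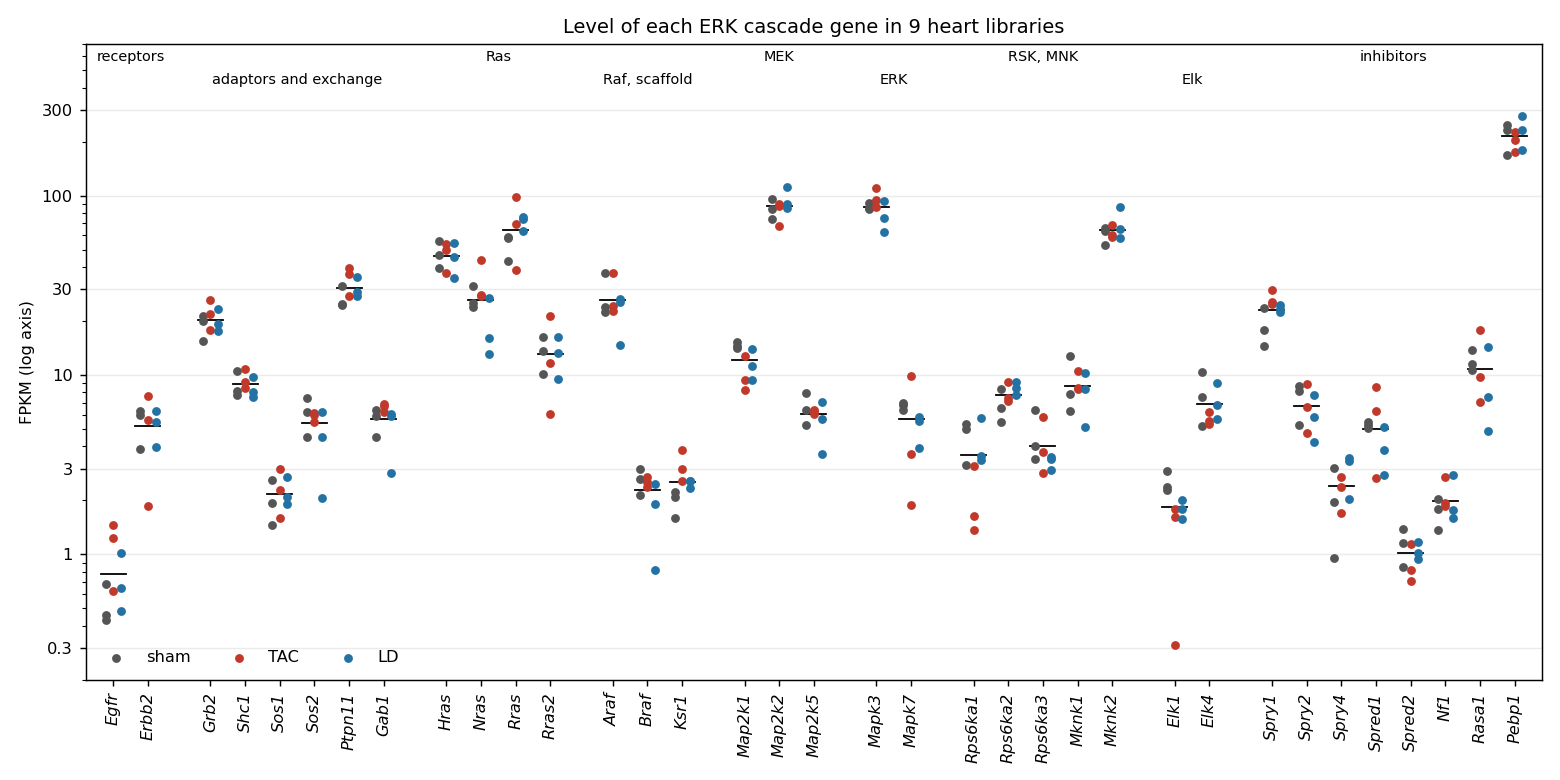
FPKM of the 35 members on a log axis, arranged by layer of the cascade from receptors to inhibitors; each point is 1 library, coloured by group, and the black line is the mean of all 9. Pebp1 is highest at a mean of 215.5 FPKM, and single low points stand out for Elk1 in TAC (0.314 FPKM) and Braf in LD (0.819 FPKM).

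Among the receptors, Erbb2, the co-receptor of the EGF receptor family that pairs with ligand-bound partners, exceeded Egfr, the EGF receptor itself, in all 9 libraries. The Erbb2 FPKM was 5.96, 3.88 and 6.29 in sham, 7.59, 1.86 and 5.58 in TAC, and 6.28, 5.49 and 3.98 in LD. The Egfr FPKM was 0.429, 0.684 and 0.459 in sham, 0.628, 1.23 and 1.46 in TAC, and 0.481, 1.01 and 0.648 in LD. Erbb2 was lowest in TAC replicate 2, where Egfr was 1.23 FPKM, and the ratio of Erbb2 to Egfr lay between 1.51 and 13.9 with a median of 6.13. Egfr was above 1 FPKM only in TAC replicates 2 and 3 and LD replicate 2. It passed the filter on low values through these 3 libraries alone, none of them sham. Its TAC mean of 1.11 ± 0.428 (SD, n = 3) against 0.524 ± 0.140 in sham gave a log2 difference of 0.45 ± 0.30 (SE; 95% interval -0.20 to 1.10, unadjusted p = 0.162, adjusted p = 0.991 by limma). Within the mostly even libraries that difference was 0.70, and between the 2 other libraries it was -0.049. Of the other receptors of this family, Erbb3 was between 0.089 and 2.66 FPKM and Erbb4 did not exceed 0.249 FPKM.

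The adaptor layer was led by Ptpn11, the phosphatase SHP2 that promotes Ras loading, at 30.7 ± 5.30 FPKM (SD over 9 libraries), and by Grb2, the adaptor that carries Sos to receptors, at 20.3 ± 3.23. Shc1, an adaptor that links receptors to Grb2, had a mean of 8.89 ± 1.22 and the docking protein Gab1 5.70 ± 1.27. Shc1 had the smallest spread of all 35 members, with its highest library 1.44-fold above its lowest. Of the exchange factors that load Ras with GTP, Sos2 (mean 5.39 FPKM) exceeded Sos1 (2.18 FPKM) in 8 of 9 libraries. The exception was LD replicate 3, where Sos2 was 2.07 and Sos1 was 2.71 FPKM. Gab1 was also lowest in that library, at 2.83 FPKM against 4.48 to 6.85 in the other 8. In LD against TAC all 6 members of the layer had differences below 0, between -0.46 for Sos2 and -0.0089 for Sos1, beside a median of -0.10 over all tested genes. Against TAC replicate 1 alone, the TAC library of the same kind as LD, Sos1 stood at 0.31 and Ptpn11 at 0.14. Grb2, Shc1, Sos2 and Gab1 stayed below 0 there. No member of the layer had an unadjusted p under 0.05 in any comparison. Among paralogues outside the 35, Gab2 (mean 4.63 FPKM) was near Gab1, while Shc3 and Shc4 did not exceed 0.433 FPKM.

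Ras proteins are the switch of the cascade, on when GTP is bound. Hras and Nras are classical Ras genes, and Rras and Rras2 are relatives in the R-Ras group. The Hras FPKM was 56.0, 46.4 and 39.3 in sham, 49.7, 53.7 and 37.0 in TAC, and 34.8, 45.5 and 54.7 in LD. The Nras FPKM was 31.2, 25.1 and 23.9 in sham, 27.5, 27.8 and 43.9 in TAC, and 26.7, 16.1 and 13.0 in LD. Hras was the higher of these 2 in 8 of 9 libraries and Nras in TAC replicate 3. The share of Hras in the sum of both was 62.2 to 64.9% in sham, where the 3 libraries hardly differed, 45.7% in TAC replicate 3 and 80.8% in LD replicate 3. With annotated exon lengths the mean share of Hras was 55.8% in place of 64.3%, and Hras was the higher in 7 of 9 libraries. The Rras FPKM was 43.3, 59.0 and 57.8 in sham, 69.2, 97.7 and 38.6 in TAC, and 63.7, 76.1 and 74.0 in LD. The Rras2 FPKM was 16.4, 13.6 and 10.1 in sham, 6.08, 11.6 and 21.2 in TAC, and 16.3, 9.46 and 13.3 in LD. Rras exceeded Rras2 in all 9 libraries, by between 1.82 and 11.4-fold, and the library with the lowest Rras, TAC replicate 3, had the highest Rras2. Mras, a further relative, had a mean of 1.02 FPKM.

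Raf kinases take the signal from Ras to MEK. The Araf FPKM was 22.6, 24.0 and 36.8 in sham, 37.0, 22.8 and 24.3 in TAC, and 26.6, 25.5 and 14.6 in LD. The Braf FPKM was 2.98, 2.14 and 2.63 in sham, 2.54, 2.36 and 2.69 in TAC, and 2.45, 1.92 and 0.819 in LD. Araf exceeded Braf in all 9 libraries by a factor of 7.59 to 17.9, and it made up 88.4 to 94.7% of their sum. Both were lowest in LD replicate 3, and the share of Araf was highest there. Ksr1, a Raf-related scaffold that brings Raf, MEK and ERK together, had FPKM values of 2.08, 2.24 and 1.60 in sham, 3.83, 2.55 and 2.98 in TAC, and 2.55, 2.55 and 2.36 in LD. Every TAC library and every LD library was above every sham library for Ksr1. Its log2 difference did not pass an unadjusted p of 0.05 in either case (a log2 difference of 0.47 ± 0.27 (SE; 95% interval -0.11 to 1.04, unadjusted p = 0.105, adjusted p = 0.974 by limma); for LD against sham 0.24, unadjusted p = 0.394). The TAC minus sham difference of Ksr1 was 0.41 within the mostly even libraries and 0.58 between the others. Its paralogue Ksr2 was at most 0.123 FPKM.

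MEK kinases have ERK as their main substrate. The Map2k2 (MEK2) FPKM was 95.5, 84.6 and 74.3 in sham, 87.2, 89.4 and 67.7 in TAC, and 89.6, 85.5 and 112 in LD. The Map2k1 (MEK1) FPKM was 15.3, 14.1 and 14.5 in sham, 8.26, 9.42 and 12.8 in TAC, and 14.0, 9.33 and 11.2 in LD. Map2k2 exceeded Map2k1 in all 9 libraries by between 5.14 and 10.6-fold and made up 87.7% of their sum on average. The size of that gap depends on the gene length behind the FPKM. The length recovered for Map2k2 was 2540 bases against 5663 annotated exon bases, and with annotated lengths for both genes its mean share was 78.2%, still the higher in 9 of 9. Map2k1 was lower in every TAC library than in every sham library, with means of 10.1 ± 2.34 and 14.6 ± 0.594 FPKM (SD, n = 3). This gave a log2 difference of -0.51 ± 0.25 (SE; 95% interval -1.05 to 0.033, unadjusted p = 0.0638, adjusted p = 0.937 by limma). The difference lay on the same side in the mostly even libraries (-0.41) and between the 2 others (-0.71). Every LD library was also below every sham library for Map2k1 (11.5 ± 2.37 FPKM; log2 difference -0.34, unadjusted p = 0.202). Map2k5 (MEK5), which acts on ERK5 and not on ERK1, had FPKM values of 6.36, 5.27 and 7.93 in sham, 6.32, 6.08 and 6.37 in TAC, and 7.05, 5.71 and 3.61 in LD. Its 3 TAC values lay within 6.08 and 6.37, inside the range of sham.

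ERK1, coded by Mapk3, was abundant and ERK5, coded by Mapk7, was not. The Mapk3 FPKM was 85.0, 83.7 and 91.2 in sham, 109.7, 93.9 and 86.4 in TAC, and 75.3, 93.7 and 63.1 in LD. The Mapk7 FPKM was 6.79, 6.98 and 6.36 in sham, 9.88, 3.64 and 1.89 in TAC, and 5.85, 5.56 and 3.92 in LD. Mapk3 exceeded Mapk7 by 11.1-fold or more in each library. Mapk3 was close to constant in sham, at 86.6 ± 3.99 (SD, n = 3), and reached its lowest level in LD replicate 3. Its 95% interval for TAC against sham ran from -0.32 to 0.62 on the log2 scale, and that for LD against TAC from -0.80 to 0.14. Mapk7 was even in sham but spread 5.24-fold over TAC, which held both its highest and its lowest library. Without TAC replicate 1, Mapk7 had a log2 difference of -1.07 from sham (unadjusted p = 0.00410), and without TAC replicate 3 the difference was -0.12 (unadjusted p = 0.744). With all libraries it was a log2 difference of -0.55 ± 0.39 (SE; 95% interval -1.39 to 0.29, unadjusted p = 0.182, adjusted p = 0.991 by limma). Its sign turned with the kind of library, at -1.05 within the mostly even libraries and 0.45 between the 2 others. Every LD library was below every sham library for Mapk7, with a log2 difference of -0.35 (unadjusted p = 0.387). Of the atypical ERK genes, Mapk6 (ERK3) had a mean of 4.24 FPKM.

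Below ERK stand the ribosomal S6 kinases (RSK) and the MAPK-interacting kinases (MNK), which phosphorylate translation and transcription factors. Mknk2 had a mean of 64.5 ± 9.41 FPKM (SD over 9 libraries) and Mknk1 8.68 ± 2.30, and Mknk2 exceeded Mknk1 in all 9 libraries. Among RSK genes, Rps6ka2 (RSK3, mean 7.71 FPKM) was above Rps6ka3 (RSK2, 4.01 FPKM) in 8 libraries and above Rps6ka1 (RSK1, 3.58 FPKM) in all 9. With annotated exon lengths it was above Rps6ka1 in 6 and above Rps6ka3 in 7. The transcription factors that ERK phosphorylates to act with the serum response factor, Elk4 and Elk1, had means of 6.86 and 1.85 FPKM, with Elk4 the higher in all 9 libraries. Elk3 of the same family was the most abundant at 21.2 FPKM.

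**Figure D2:**
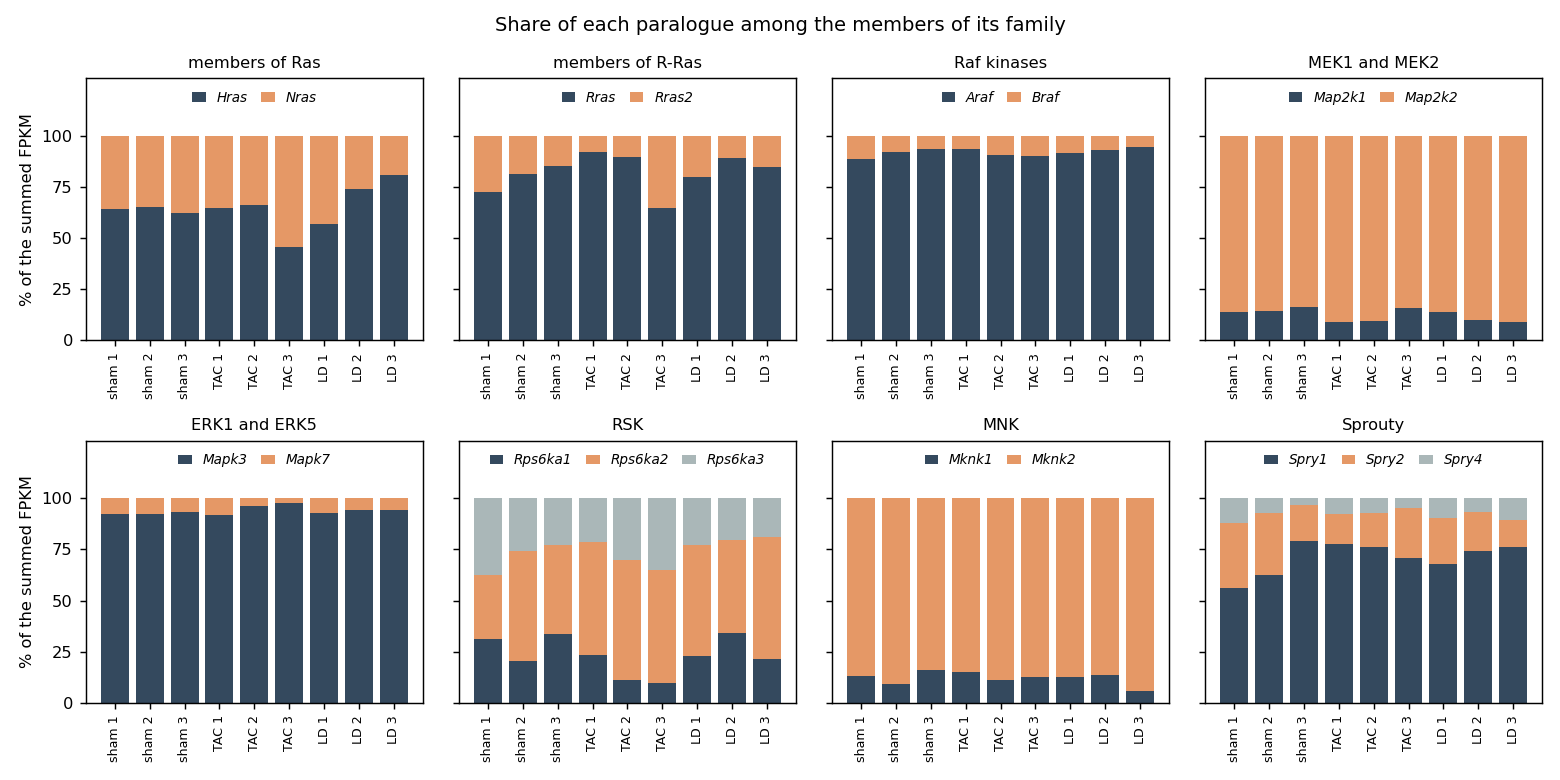
Share of each paralogue in the summed FPKM of the members of its family, in percent, 1 stacked bar per library; genes of these families that are not members are not in the sums. Map2k2, Mapk3, Araf and Mknk2 hold at least 83.7% of their sums in each of the 9 libraries, whereas the shares of Hras and Nras and of the RSK genes vary between libraries.

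The inhibitors act at several levels. Pebp1 (Raf kinase inhibitor protein), which keeps Raf from MEK, had a mean of 215.5 ± 36.8 FPKM (SD over 9 libraries), above 97.1% of tested genes. Sprouty proteins are feedback inhibitors that ERK signalling itself induces, and Spry1 (22.9 FPKM) exceeded Spry2 (6.69 FPKM) and Spry4 (2.39 FPKM) in all 9 libraries. With annotated exon lengths Spry1 exceeded Spry2 in 8 and Spry4 in 9. Rasa1, which makes Ras hydrolyse its GTP, had a mean of 10.8 FPKM and Nf1, with the same activity, 1.98 FPKM. Rasa1 was among the more variable members, from 4.85 FPKM in LD replicate 3 to 17.8 in TAC replicate 3. Spred1, a Sprouty-related inhibitor of Ras that works with Nf1, stood at 4.99 FPKM and Spred2 at 1.02. The order of the Spred genes rests on the gene length used. The FPKM of Spred2 fits a length of 33695 bases, 7.29 times its annotated exon length, and with annotated lengths Spred1 was the higher in only 2 of 9 libraries. Recovered lengths were within 25% of the annotated exon length for 21 of the 35 members.

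No member passed a Benjamini-Hochberg adjusted p of 0.05 in limma's moderated test in any comparison, and 0% of the 11380 tested genes did so. At an unadjusted p under 0.05, 3 members differed between TAC and sham (8.57% of the 35, against 5.43% of all tested genes), 2 between LD and TAC (5.71%, against 8.82%) and 0 between LD and sham (against 5.11%). The F test over all 3 groups gave 2, Rps6ka1 (unadjusted p = 0.0285) and Nras (unadjusted p = 0.0384), against 6.76% of all genes. Groups did not overlap for 5 members in TAC against sham, 4 in LD against TAC and 5 in LD against sham, while 9.84, 11.9 and 13.2% of all genes did not. These shares of members are 14.3, 11.4 and 14.3%, close to those of all genes. The median member differed by 0.013 on the log2 scale for TAC against sham, with 18 above 0 and 17 below. For LD against TAC the median was -0.12 and for LD against sham -0.077, beside -0.10 and -0.11 over all genes tested. Median-of-ratios scaling, which removes most of that shift of all genes, put the median member at 0.015 and 0.031. Log2 differences were under 0.5 in size for 30 members in TAC against sham, 33 in LD against TAC and 34 in LD against sham, or 85.7, 94.3 and 97.1% of the members beside 85.8, 78.0 and 83.9% of all tested genes. Standard errors had a median of 0.29 over the members, and 27, 26 and 25 of the 35 95% intervals lay wholly between -1 and 1 on the log2 scale in these comparisons.

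**Figure D3:**
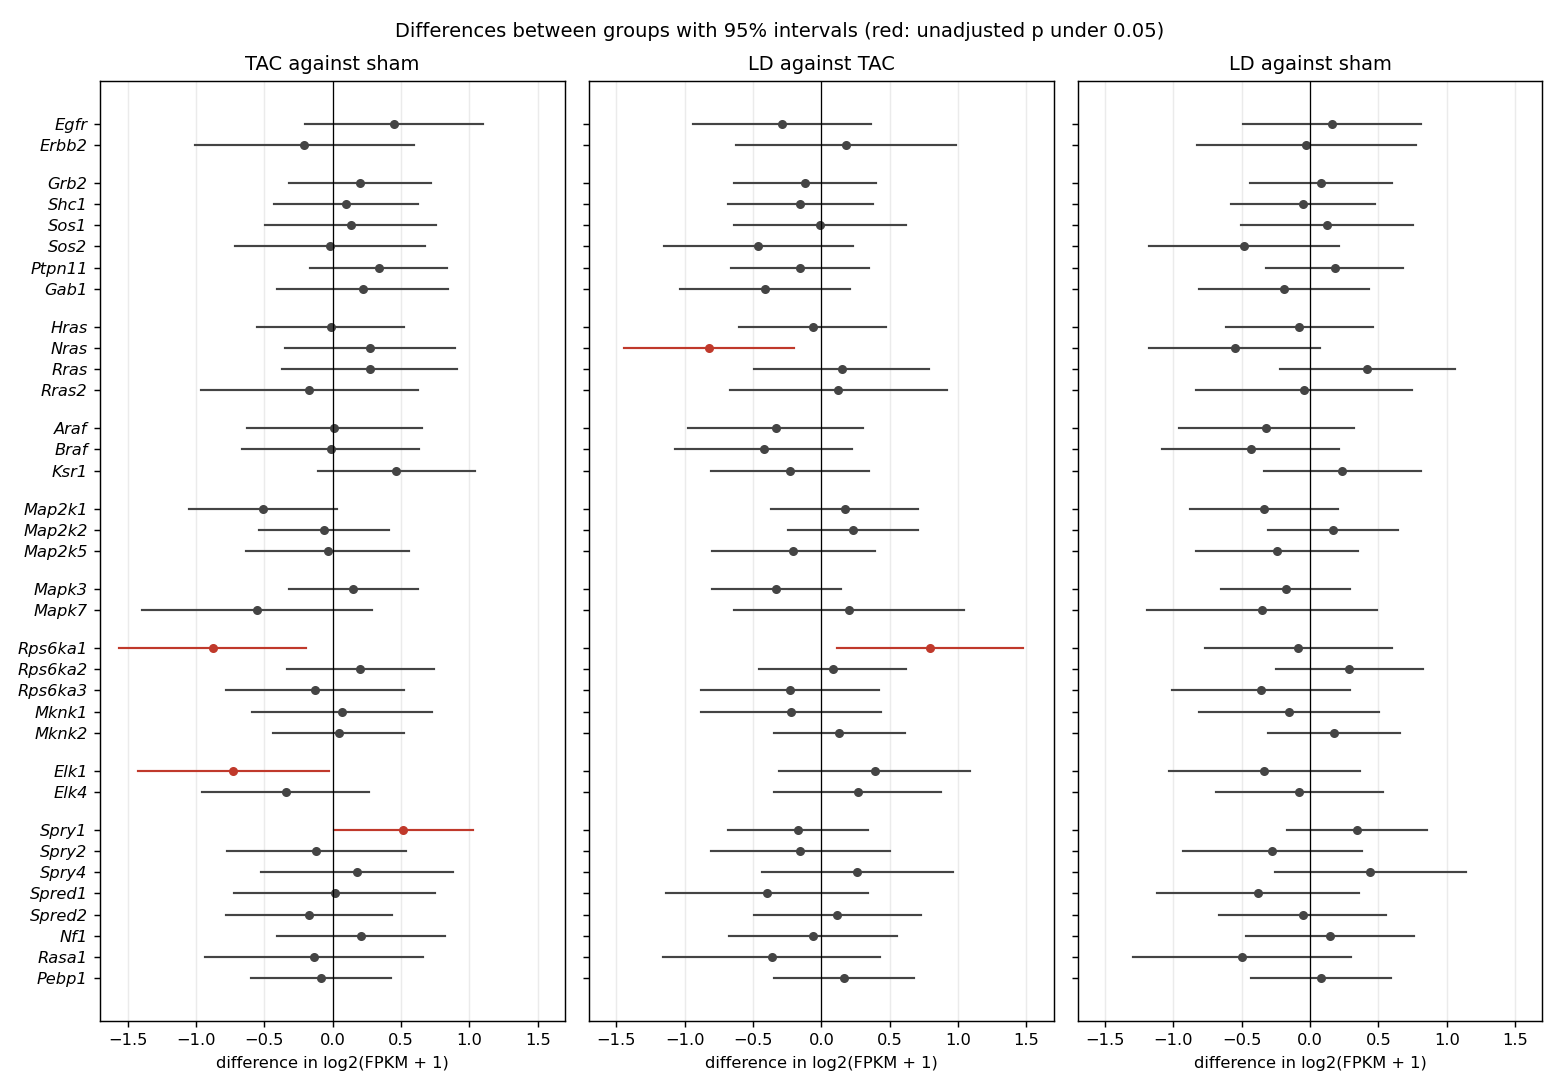
Difference between groups in log2(FPKM + 1) for each member, point and 95% interval from limma's fit, one panel for each comparison, in the order of the cascade. Red marks an unadjusted p under 0.05, which 3, 2 and 0 members reached; no adjusted p passed 0.05.

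Rps6ka1, which codes for RSK1 (ENSMUSG00000003644.17, chromosome 4, 133847290 to 133887797, minus strand, GRCm38), had the largest difference of any member in TAC against sham. Its FPKM was 5.34, 3.15 and 5.02 in sham, 3.11, 1.36 and 1.63 in TAC, and 3.52, 5.77 and 3.34 in LD. TAC replicates 2 and 3 were far below every other library, while TAC replicate 1 was level with the lowest sham library, and the sham and TAC groups did not overlap. The means were 2.03 ± 0.942 in TAC, 4.50 ± 1.18 in sham and 4.21 ± 1.35 FPKM in LD (SD, n = 3). For TAC against sham this was a log2 difference of -0.88 ± 0.32 (SE; 95% interval -1.56 to -0.20, unadjusted p = 0.0153, adjusted p = 0.789 by limma). For LD against TAC it was a log2 difference of 0.79 ± 0.32 (SE; 95% interval 0.11 to 1.48, unadjusted p = 0.0258, adjusted p = 0.537 by limma), in the opposite direction, and the 2 comparisons share the TAC libraries. Both low libraries are of the mostly even kind. Within that kind the TAC minus sham difference was -1.31, and between TAC replicate 1 and sham replicate 2, the only pair of the other kind, it was -0.015. The LD libraries, all of the other kind, stood 0.31 above TAC replicate 1. With the kind of library as a term in the fit the difference was -0.88 ± 0.33 for TAC against sham (unadjusted p = 0.0209). That term cannot change this estimate, because sham and TAC hold equal numbers of libraries of each kind. For LD against TAC the same fit gave 0.74 ± 0.41 (unadjusted p = 0.0928). The difference of TAC from sham had an unadjusted p of 0.0613 or 0.0515 when sham replicate 1 or 3 was left out, and of 0.0615 when TAC replicate 2 was. That of LD from TAC had 0.0942 or 0.0624 when TAC replicate 2 or 3 was left out, and 0.124 when LD replicate 2 was, with log2 differences between 0.59 and 0.71. The 2 low libraries are also those with the highest fibroblast markers (mean log2 0.95 and 1.01 above sham, against 0.087 in TAC replicate 1), and the part of this in the result was not tested. An antisense gene overlaps 5.80% of the exon bases of Rps6ka1, and the libraries are not stated to keep the strand.

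Elk1 (chromosome X, 20933395 to 20950608) was lower in every TAC library than in every sham library. Its FPKM was 2.36, 2.91 and 2.29 in sham, 1.61, 1.78 and 0.314 in TAC, and 1.78, 1.57 and 2.001 in LD. The lowest value, in TAC replicate 3, rests on 10 fragments, with an exact Poisson 95% interval of 0.151 to 0.578 FPKM that covers counting error only. With its fragments halved to 5 that interval was 0.102 to 0.734 FPKM. The means of 1.24 ± 0.802 in TAC and 2.52 ± 0.339 in sham gave a log2 difference of -0.73 ± 0.33 (SE; 95% interval -1.43 to -0.029, unadjusted p = 0.0423, adjusted p = 0.905 by limma). Without TAC replicate 3 the log2 difference was -0.38 (unadjusted p = 0.205), and without any 1 of the sham libraries or LD replicates 1 and 2 the unadjusted p was between 0.0510 and 0.118. It was -0.80 within the mostly even libraries and -0.58 between the 2 others. The LD libraries lay between 1.57 and 2.001 FPKM, below all sham values, and overlapped with TAC. Elk4 had a log2 difference of -0.34 for TAC against sham (unadjusted p = 0.248), with TAC values of 5.36 to 6.21 FPKM inside the sham range of 5.22 to 10.4. Its sign turned with the kind of library, at -0.62 within the mostly even libraries and 0.21 between the 2 others.

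Spry1 (chromosome 3, 37639947 to 37644598) was the 1 member with an unadjusted p under 0.05 that was higher in TAC than in sham. Its FPKM was 14.5, 17.7 and 23.8 in sham, 24.7, 29.7 and 25.6 in TAC, and 23.4, 22.5 and 24.6 in LD. All TAC libraries exceeded all sham libraries, by a small margin over sham replicate 3, and the 3 LD libraries lay below every TAC library, 2 of them also below sham replicate 3. Means were 26.6 ± 2.64 in TAC, 18.6 ± 4.72 in sham and 23.5 ± 1.09 FPKM in LD (SD, n = 3). TAC against sham gave a log2 difference of 0.52 ± 0.24 (SE; 95% interval 0.0063 to 1.03, unadjusted p = 0.0476, adjusted p = 0.918 by limma). The difference was of like size within the mostly even libraries (0.54) and between the others (0.46). It was 0.36 (unadjusted p = 0.202) without sham replicate 1, and without any 1 of sham replicate 2, the TAC libraries or LD replicates 1 and 2 the unadjusted p was between 0.0508 and 0.131. An unclassified transcript on the other strand covers 24.4% of its exon bases. Of the other Sprouty genes, Spry2 had a log2 difference of -0.12 (unadjusted p = 0.699) and Spry4 0.18 (unadjusted p = 0.593).

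Nras (chromosome 3, 103058285 to 103067914) was the member with the largest difference in LD against TAC. LD replicates 2 and 3 were the lowest of the 9 libraries, at 16.1 and 13.0 FPKM, and TAC replicate 3 was the highest at 43.9. LD replicate 1, at 26.7 FPKM, was just under the lowest TAC library (27.5) and above 2 of the sham libraries. With means of 18.6 ± 7.18 in LD and 33.1 ± 9.39 FPKM in TAC this gave a log2 difference of -0.82 ± 0.29 (SE; 95% interval -1.45 to -0.20, unadjusted p = 0.0134, adjusted p = 0.537 by limma). Leaving out TAC replicate 3 made it -0.61 (unadjusted p = 0.0631), and leaving out LD replicate 3 also -0.61 (unadjusted p = 0.0635). Against TAC replicate 1, the TAC library of the same kind, the 3 LD libraries stood at -0.60, and with the kind as a term the difference was -0.67 ± 0.37 (unadjusted p = 0.0901). For LD against sham the log2 difference was -0.55 (unadjusted p = 0.0791). Hras had a log2 difference of -0.062 for LD against TAC, with a 95% interval from -0.60 to 0.48.

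**Figure D4:**
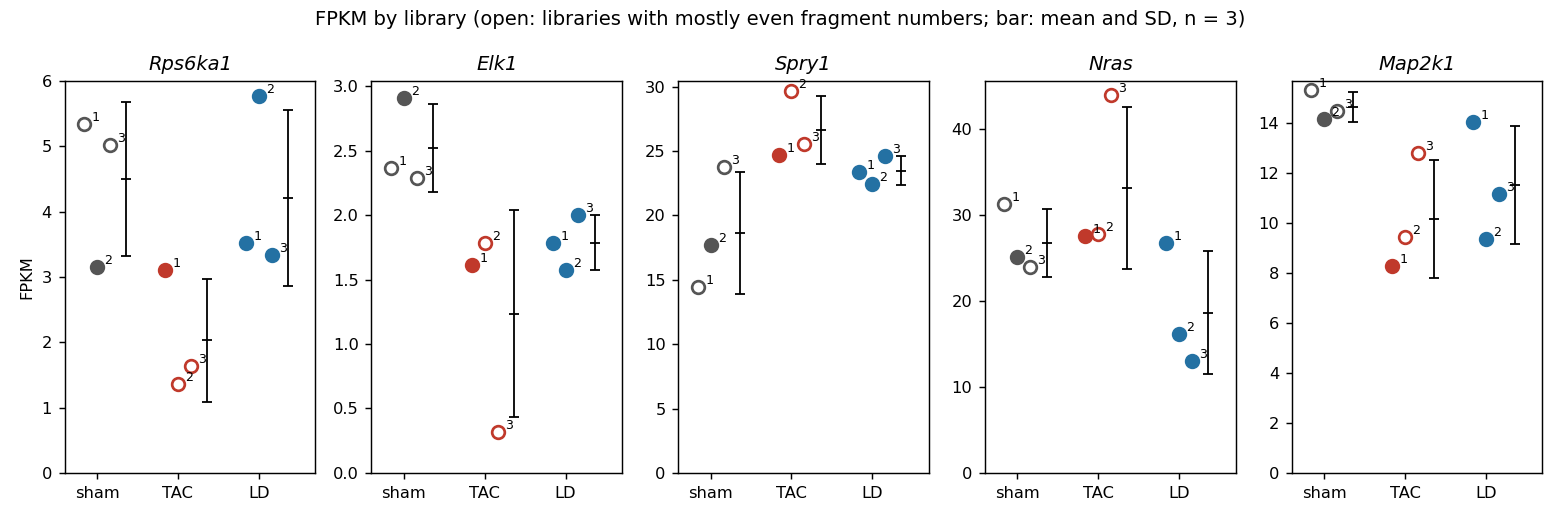
FPKM of 5 members in each library (numbers are replicates), with the mean and SD of each group (n = 3); open circles are the libraries with mostly even fragment numbers. TAC is below sham without overlap for Rps6ka1, Elk1 and Map2k1 and above it for Spry1, and LD replicates 2 and 3 are the lowest for Nras.

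By layer, the signs of the differences were mixed. In TAC against sham 5 of 6 adaptors were above 0, all 3 MEK genes and both Elk genes were below, and the 8 inhibitors divided 4 to 4. Over all tested genes 50% were above 0. These signs did not all hold within each kind of library. Between TAC replicate 1 and sham replicate 2, Map2k2 (0.043), Map2k5 (0.22), Elk4 (0.21) and Sos2 (0.37) were above 0. Ptpn11 (-0.18) was below 0 there, and Map2k1 (-0.71) and Elk1 (-0.58) stayed below. Within the mostly even libraries Shc1 was at -0.035. In LD against TAC all 6 adaptors and exchange factors and all 3 of Araf, Braf and Ksr1 were below 0, between -0.46 and -0.0089, and both Elk genes were above, beside 39.6% of all tested genes above 0. Against TAC replicate 1 alone, the TAC library of the same kind as LD, Sos1 (0.31) and Ptpn11 (0.14) were above 0. The signs of the other genes named for LD against TAC were kept there. In LD against sham 13 of 35 members were above 0, or 37.1% of them, beside 37.2% of all genes. Without the low LD replicate 3, the median member differed from sham by 0.017 in place of -0.077.

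**Figure D5:**
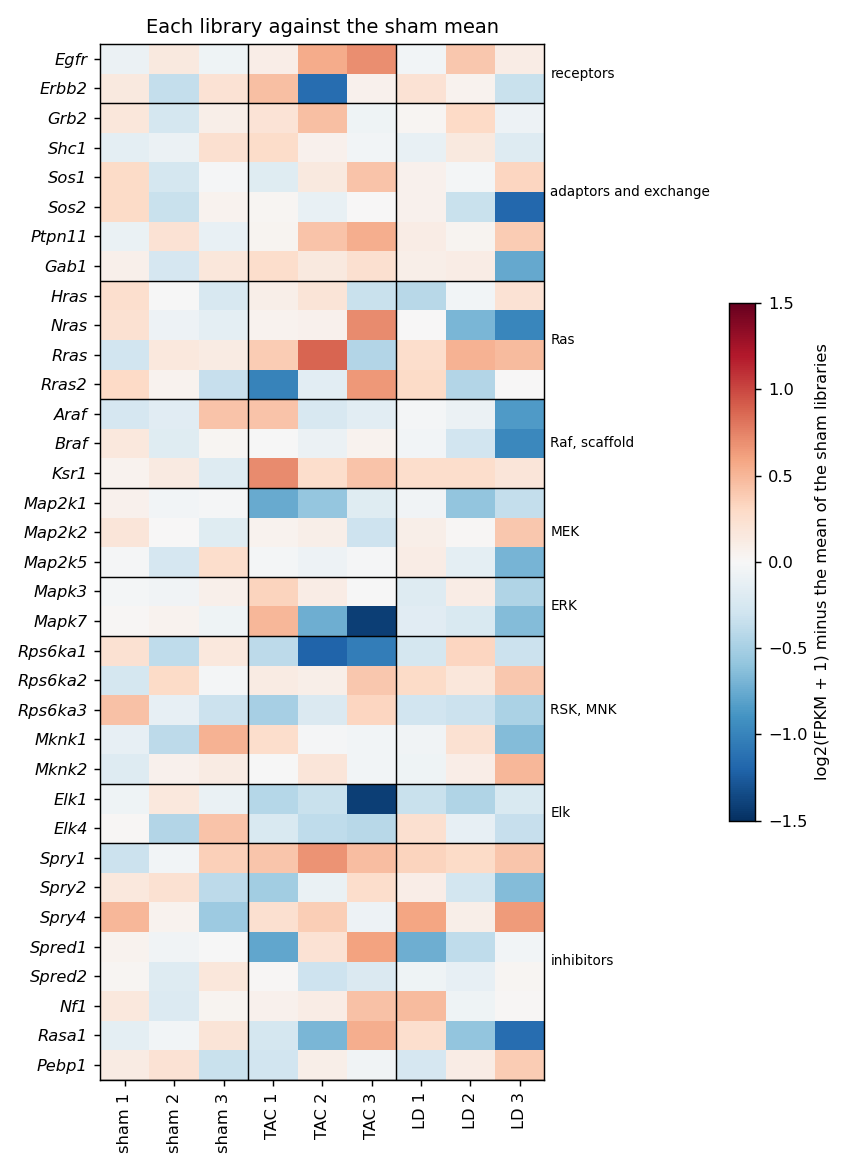
Each library's log2(FPKM + 1) minus the mean of the 3 sham libraries for the 35 members, by layer; red is above and blue below the sham mean. Strong blue marks low values such as those of Elk1 and Mapk7 in TAC replicate 3 and Sos2 in LD replicate 3.

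A further list held 102 genes of the pathway that are not members: ligands, other receptors, adaptors, exchange factors, scaffolds and inhibitors. Of these, 69 passed the filter on low values. At an unadjusted p under 0.05, 1 was higher and 3 lower in TAC than in sham (5.80% of the 69, against 5.43% of all tested genes). In LD against TAC 3 were higher and 7 lower (14.5%, against 8.82%), and in LD against sham 1 was higher and 2 lower (4.35%, against 5.11%). None passed an adjusted p of 0.05. Those with the smallest p of the F test were Fgfr3 (unadjusted p = 0.0136), a receptor of fibroblast growth factors, and Rasgrp2 (unadjusted p = 0.0391), an exchange factor best known for Rap1. Fgfr3 FPKM was 7.04, 9.78 and 15.3 in sham, 10.8, 13.7 and 19.4 in TAC, and 8.19, 6.40 and 1.60 in LD. LD was lower than TAC without overlap, most of all in LD replicate 3, and gave a log2 difference of -1.44 ± 0.43 (SE; 95% interval -2.36 to -0.52, unadjusted p = 0.00467, adjusted p = 0.520 by limma). Against TAC replicate 1 alone, the TAC library of the same kind, it was -1.07. Rasgrp2 FPKM was 5.60, 7.97 and 4.29 in sham, 3.65, 2.77 and 0.616 in TAC, and 5.54, 4.15 and 2.25 in LD, lower in TAC than in sham with a log2 difference of -1.16 ± 0.40 (SE; 95% interval -2.02 to -0.29, unadjusted p = 0.0125, adjusted p = 0.772 by limma), at -1.26 within the mostly even libraries and -0.95 between the others. Frs3, an adaptor of fibroblast growth factor receptors, was lower in TAC than in sham (4.28 ± 2.41 against 7.97 ± 0.798 FPKM, log2 difference -0.88, unadjusted p = 0.0194). That difference was -1.25 within the mostly even libraries and -0.14 between the others. The scaffold Cnksr1 had its highest mean in LD (10.9 ± 4.18 against 4.89 ± 2.27 FPKM in sham, log2 difference 1.05, unadjusted p = 0.0131), and the 3 LD libraries stood 0.64 above sham replicate 2, the sham library of the same kind.

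Pdgfra, the receptor that marks fibroblasts, had FPKM values of 4.94, 6.78 and 6.46 in sham, 6.85, 11.2 and 13.2 in TAC, and 5.77, 5.51 and 6.47 in LD. It was highest in the 2 TAC libraries with high fibroblast markers, of which it is one. TAC against sham gave a log2 difference of 0.66 ± 0.28 (SE; 95% interval 0.063 to 1.25, unadjusted p = 0.0326, adjusted p = 0.903 by limma), with 0.98 within the mostly even libraries and 0.012 between the others. Mras was higher in LD than in TAC (1.48 ± 0.166 against 0.492 ± 0.203 FPKM, log2 difference 0.74, unadjusted p = 0.0213). It reached 1 FPKM only in the LD libraries and sham replicate 2. Mras thus passed the filter on low values through the group where it was high, and its p does not allow for that. Mapk6 was lower in LD than in TAC (log2 difference -0.82, unadjusted p = 0.0235). Against TAC replicate 1 alone the values for Mras and Mapk6 were 0.79 and -0.83. Dok2, an adaptor that restrains Ras signalling in blood cells, was lower in LD than in sham (log2 difference -0.96, unadjusted p = 0.0246), with -0.56 against sham replicate 2 alone. The most abundant ligands were Kitl (33.0 FPKM), Fgf1 (19.8 FPKM), Pdgfa (17.2 FPKM) and Pdgfb (13.4 FPKM), and the most abundant receptors were Pdgfrb (27.0 FPKM), Insr (20.0 FPKM), Fgfr3 (10.2 FPKM) and Fgfr1 (9.68 FPKM). Fgf1, which activates all fibroblast growth factor receptors, was lower in every TAC library than in every sham library (15.5 ± 4.50 against 23.8 ± 2.43 FPKM, log2 difference -0.62, unadjusted p = 0.0332), with -0.75 within the mostly even libraries and -0.36 between the others.

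Genes whose transcription ERK is known to drive were listed too. ERK activity was not measured, and whether ERK drove these transcripts in this tissue was not tested. The list, which leaves out Spry1, had 10 genes: Phlda1, Spry2, Spry4, Dusp4, Dusp6, Ccnd1, Epha2, Epha4, Etv4 and Etv5. 8 of them passed the filter, while Dusp4 (4.34 FPKM in LD replicate 3 and at most 1.09 in the others) and Etv4 did not. In TAC against sham, 2 of 8 were above 0 and the median was -0.32, beside 50% above 0 over all tested genes. In LD against TAC, 4 of 8 were above 0 with a median of 0.035, beside 39.6% and -0.10 over all genes. In LD against sham, 2 of 8 were above 0 with a median of -0.17, beside 37.2% and -0.11. At an unadjusted p under 0.05 there were 1, 1 and 2 of the 8 in these comparisons. That is 12.5, 12.5 and 25% of so few genes, beside 5.43, 8.82 and 5.11% of all tested genes. Spry2 and Spry4 are also among the members. Epha2, an ephrin receptor, had the smallest p of them. Its FPKM was 5.15, 2.79 and 4.97 in sham, 1.11, 1.64 and 1.12 in TAC, and 3.39, 4.23 and 5.37 in LD, with every TAC library below every library of the other groups. TAC against sham gave a log2 difference of -1.18 ± 0.30 (SE; 95% interval -1.82 to -0.55, unadjusted p = 0.00132, adjusted p = 0.534 by limma). LD against TAC gave a log2 difference of 1.21 ± 0.30 (SE; 95% interval 0.57 to 1.84, unadjusted p = 0.00113, adjusted p = 0.382 by limma). The TAC minus sham difference was -1.36 within the mostly even libraries and -0.84 between the others, and LD stood 1.32 above TAC replicate 1. Dusp6, the phosphatase that removes phosphate from ERK and is a common marker of its activity, had FPKM values of 13.4, 8.44 and 6.63 in sham, 8.04, 13.4 and 10.8 in TAC, and 9.77, 5.06 and 9.73 in LD and an F test p of 0.525. Phlda1 was lower in LD than in sham (18.0 ± 2.35 against 31.5 ± 5.84 FPKM, log2 difference -0.77, unadjusted p = 0.00681), and so was Epha4 (log2 difference -0.97, unadjusted p = 0.0259), which was lowest in LD replicate 3 at 0.801 FPKM. Against sham replicate 2 alone the LD libraries stood at -0.51 for Phlda1 and -0.77 for Epha4. Ccnd1 and Etv5 had F test p values of 0.670 and 0.578. None of these passed an adjusted p of 0.05.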

How the data were processed

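Poly-A RNA from the heart of 9 mice was sequenced. The authors deposited 1 table of FPKM values for 21989 gene symbols in 9 libraries, each column matched to a sample by its name. Per the submitters' processing notes, HISAT2 2.1.0 was used with build GRCm38, beside Cufflinks 2.2.1, HTSeq 0.7.2, DESeq, fastp 0.20.0 and CASAVA 1.8. How the FPKM values were made, and on which annotation, is not given in the sources used here. For every gene above 0 (16262) the FPKM was a whole multiple of the worth of 1 fragment within a tolerance of 0.001, which gave fragment numbers, gene lengths and library totals. For a gene of 1 kilobase, 3 fragments are worth between 0.166 FPKM (deepest library) and 0.404 FPKM (shallowest), or up to 0.669 FPKM (TAC replicate 3) if the fragments of the 4 libraries with mostly even numbers are halved, a limit set by counting error alone.

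Genes with at least 1 FPKM in 3 of 9 libraries (11380) were tested on log2(FPKM + 1), which understates changes of low genes, with limma 3.58.1 (R 4.3.3), fitting a mean for each group with 6 residual degrees of freedom, trend, two-sided moderated tests, Benjamini-Hochberg adjustment over all genes at 0.05. The script was tested on simulated data. The labels speak of biological repeats but name no litter, cage or sequencing day. Coordinates and exon lengths are from GENCODE M21 (GRCm38).

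Members and lists were chosen with earlier results of these data known. All members are named; values per library are given for paralogues of the Ras, Raf, MEK and ERK layers, for members with an unadjusted p under 0.05, and for those without overlap between groups that differed by at least 0.5. Outside the members, the 8 genes of smallest F test p, the 4 ligands and 4 receptors of highest mean, paralogues and 10 output genes could be named. A few genes of the pathway are not reported here. The split of libraries by even fragment numbers was seen in the data, and the fits that use it were added then.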

Additional observations from a re-analysis of the deposited data

How the results depend on the processing

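The number of members with an unadjusted p under 0.05 was 3 for TAC against sham, 2 for LD against TAC, 0 for LD against sham and 2 in the F test. No member had an adjusted p under 0.05 in limma under any alternative run. Shares in brackets are those of all genes tested in the same run. For TAC against sham the count was 1 with only those groups in the fit (5.38%). It was also 1 with voom on fragments of the mostly even libraries divided by 2 (3.73%). For LD against TAC it was 1 with that voom fit (9.61%) and 1 without TAC replicate 3 and LD replicate 3 together (4.43%). With the kind of library as a term it was 0 (2.99%). For LD against sham it was 4 with array weights (19.4%) and 2 with voom, whether fragments were halved (8.53%) or not (8.38%). In the F test it was 4 with array weights (18.8%), 1 with a filter at 5 FPKM (6.83%), and 1 each with median-of-ratios (6.50%) and upper-quartile scaling (6.49%). It was 1 without the trend (6.68%) and 1 with voom on halved fragments (6.85%). Without TAC replicate 3 and LD replicate 3 it was 0 (6.18%), and with the kind of library as a term also 0 (3.65%). Leaving out each library in turn gave 0 (without sham replicate 1) to 3 for TAC against sham, 0 (without TAC replicate 3) to 4 (without TAC replicate 1) for LD against TAC, 0 to 3 (without LD replicate 1) for LD against sham, and 0 (without sham replicate 1 or TAC replicate 3) to 3 in the F test. The share of all tested genes moved in these runs too, from 3.35 to 10.1%, 4.78 to 15.5%, 2.98 to 9.31% and 4.85 to 11.5%. The highest count for LD against TAC and that for LD against sham came in the runs with the highest share.

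The median member in LD against TAC (-0.12) was 0.015 with median-of-ratios, 0.0233 with upper-quartile and -0.2242 with TPM scaling, -0.0334 without TAC replicate 3 and LD replicate 3, -0.0194 with the kind of library as a term, and -0.1234 to -0.0271 with 1 library left out. In LD against sham (-0.077) it was 0.0307, 0.0228 and -0.1565 under the same scalings, 0.0349 with array weights, 0.017 without TAC replicate 3 and LD replicate 3, and -0.1602 to 0.017 with 1 library left out. With annotated exon lengths the mean share was 78.176% for Map2k2, 38.902% for Rps6ka2 and 59.839% for Spry1, in place of 87.7, 50.9 and 71.2%. Beyond the scalings' own construction, the cause of these shifts was not tested.

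With a replicate block the count was 1 for TAC against sham (4.78% of all genes) and 1 in the F test (5.39%). It was 2 for LD against TAC (7.14%) and 0 for LD against sham (4.34%). The replicate numbers share no stated origin: samples with the same number correlated between -0.24 and 0.15 in their deviations. Of 2493 values of single members under alternatives, 156 differed in sign from the reported one, all from differences of at most 0.40 in size. Rps6ka1, Elk1, Spry1 and Nras kept their sign under every alternative for the comparisons given. These genes were picked by their p in the same data. Several alternatives, such as leaving out a library of the group not compared, cannot change a difference, so a kept sign under them shows nothing. This holds for the 2493 values too. Depth limits Elk1, Egfr and Rps6ka1 most, with 10, 23 and 52 fragments in their lowest libraries, before any halving.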
